A study of Mus musculus with 6 samples.

Results

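Amino acid transporters of the SLC1, SLC3, SLC7, SLC36, SLC38 and SLC43 families were followed in mouse livers injured by acetaminophen (APAP). They were taken by gene symbol: every gene of those families in the deposited expression table except Slc7a11, which gave 37 of 28476 genes. The rule uses symbols and no measured value, though the set was proposed with earlier results of these data known. RNA came from whole livers of C57BL/6 mice that were fasted overnight, given 300 mg/kg APAP intraperitoneally and sampled 24 h later. The 6 libraries formed 2 groups of 3, Flox and Nedd4 HepKO. Both groups received the drug, and no undosed liver was analysed here, so every difference is between genotypes after APAP. The labels do not name the Cre line behind HepKO, the age or the sex of the animals, and whether a library stands for 1 animal is not stated in them. The p-values therefore measure the spread between these libraries.

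These carriers move amino acids across the plasma membrane and the lysosomal membrane. SLC7 light chains work as pairs with an SLC3 heavy chain, which carries them to the cell surface. Sodium-coupled SLC38 and SLC1 carriers concentrate amino acids in the cell, exchangers such as Slc7a5 trade one amino acid for another, and some lysosomal members report amino acid supply to the kinase complex mTORC1. The liver takes up alanine and glutamine for glucose and urea synthesis, and ligases of the NEDD4 family are known to ubiquitinate several transporters at the cell surface. The values here are transcript levels and say nothing of the proteins.

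Levels are given as FPKM, fragments scaled to transcript length and to library size, so levels of different genes are set side by side per length. Genes averaging 0.5 FPKM or more were tested with limma on log2(FPKM + 1), and a gene was called at a Benjamini-Hochberg adjusted p under 0.05 over all 12712 genes tested. Log2 fold changes are on that scale, which understates the change of low genes. Nedd4, the targeted ligase gene, had 2.18, 2.59 and 2.23 FPKM in Flox and 0.618, 0.666 and 0.565 FPKM in HepKO replicates 1 to 3, so every HepKO library lay below every Flox library (log2 fold change -1.04, SE 0.10, limma adjusted p = 0.00148). Library sums were 456176 to 496303 FPKM, and depth is unknown. HepKO replicate 1 had 24.6% of its FPKM in mitochondrial genome transcripts against 16.7% to 18.3% in the other libraries.

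Marker transcripts of other cells differed between the groups, and their part in the transporter results was not tested. Summed levels of 12 genes entered as neutrophil markers were 12.1 to 22.4 FPKM in Flox and 138 to 163 FPKM in HepKO libraries. Of the 10 tested, 9 were called higher and 1 lower. Of those 9, 5 had Flox means under the 0.5 FPKM limit and reached the test only through their HepKO level, so the sums carry this comparison rather than the count. The lower gene, Vamp5, was matched through a shared symbol in place of the listed marker Camp, and Vamp5 itself was not listed as a neutrophil marker. It averaged 1.96 FPKM in Flox and 0.957 FPKM in HepKO libraries and is part of the sums. Summed levels of 7 erythroid markers were 132 to 234 and 551 to 974 FPKM (4 of 5 higher), and those of 10 monocyte and macrophage markers 83.4 to 106 and 121 to 155 FPKM (4 higher, 2 of them tested only through HepKO, and 1 lower, tested only through Flox, of 6). Kupffer cell markers summed to 71.5 to 139 and 136 to 176 FPKM (1 higher of 10), sinusoidal endothelial markers to 41.1 to 49.8 and 53.6 to 71.1 FPKM (4 higher and 1 lower of 10), stellate cell markers to 27.0 to 35.4 and 42.0 to 59.5 FPKM (2 higher of 9) and cholangiocyte markers to 30.9 to 41.0 and 55.0 to 71.0 FPKM (2 higher and 1 lower of 6). Some of these sums rested largely on 1 gene. Without Marco the Kupffer cell sums were 64.0 to 123 and 99.2 to 127 FPKM, with wide overlap. Stellate cell sums without Dcn were 12.7 to 13.6 and 14.5 to 20.8 FPKM. Cholangiocyte sums without Spp1, which is also in the macrophage list, were 9.87 to 12.0 and 18.2 to 22.1 FPKM. Endothelial sums without Eng were 33.2 to 39.4 and 41.8 to 58.6 FPKM. T and NK cell markers stayed within 0.172 to 1.67 FPKM and B cell markers within 0.377 to 0.996 FPKM in every library, with none tested and the B cell marker Ms4a1 at 0, and 0 of 2 tested proliferation markers were called. The 8 general hepatocyte markers, none at 0, summed to 37335 to 43976 FPKM in Flox and 41959 to 46973 FPKM in HepKO libraries (1 higher and 2 lower of 8). Pericentral hepatocyte markers summed to 1072 to 1162 and 815 to 978 FPKM (1 higher and 4 lower of 8, 1 of the 4 tested only through Flox), and periportal ones to 1406 to 2133.5 and 1118 to 1237 FPKM (4 lower of 9).

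Calls among the transporters went both ways, as they did among all genes tested. Of the 37 genes, 19 reached the test, 3 of them were called higher in HepKO livers (Slc7a5, Slc7a8 and Slc7a6, all SLC7 light chains) and 4 lower (the heavy chain Slc3a1, the exchanger Slc1a4, the system A carrier Slc38a4 and the proton-coupled carrier Slc36a1), and 12 did not pass. Over all genes tested, 9.33% were called higher and 11.0% lower (20.3% in either direction), against 15.8% and 21.1% of the 19. The split depended on scaling: after median-ratio rescaling 3 members were higher and 2 lower, and over all genes 1501 were higher and 1034 lower in place of 1186 and 1397. Of the 19, 7 had every HepKO library above every Flox library and 5 had every HepKO library below; over all genes tested these shares were 17.2% and 25.2%. The median log2 fold change of the 19 was 0.17, beside -0.06 for all genes tested. Single libraries moved the counts: 5 higher and 4 lower without Flox replicate 1, 1 and 3 without Flox replicate 2, 2 and 2 without Flox replicate 3, 3 and 2 without HepKO replicate 1, 1 and 1 without HepKO replicate 2, and 2 and 2 without HepKO replicate 3. Slc7a6 had a Flox mean of 0.295 FPKM and reached the test only through its HepKO level, so these counts do not speak for all 37 genes. In whole liver, fewer cells of a type and less RNA per cell cannot be told apart.

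**Figure D1:**
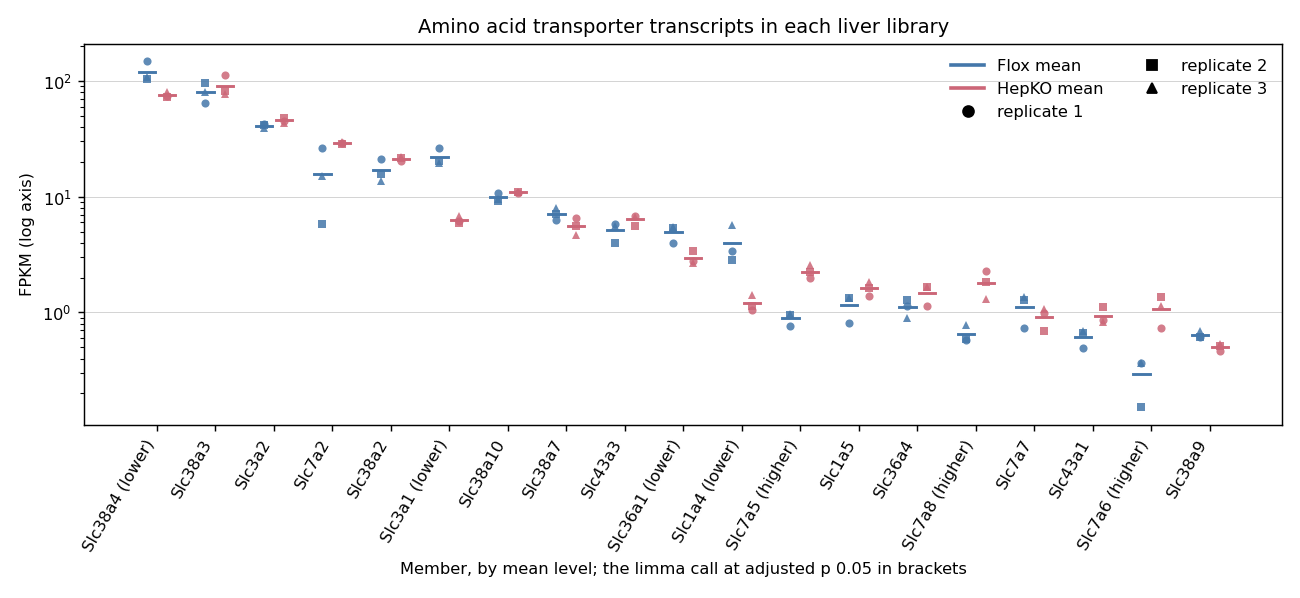
FPKM of the 19 tested transporters in each library on a log axis, ordered by mean level, with Flox in blue, HepKO in red, a line at each group mean and a marker shape for each replicate number. The levels span from 147.8 FPKM (Slc38a4 in Flox replicate 1) to 0.152 FPKM (Slc7a6 in Flox replicate 2), and the 3 members called higher all had Flox means under 1 FPKM.

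A few genes carried most of the transcript. The 5 members with the highest means, Slc38a4, Slc38a3, Slc3a2, Slc7a2 and Slc38a2, made up 80.4% to 82.5% of the summed FPKM of the 37 in Flox libraries and 84.5% to 85.8% in HepKO libraries. That sum was 367, 319.9 and 319 FPKM in Flox and 328, 297 and 299 FPKM in HepKO replicates 1 to 3, so the groups overlapped. The share held by Slc38a4 alone was 40.3%, 32.5% and 33.9% in Flox and 22.7%, 24.3% and 26.8% in HepKO libraries, with no overlap.

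Heavy chains came apart. Slc3a1 (ENSMUSG00000024131, chromosome 17, 85028376 to 85064236 on GRCm38) encodes rBAT, the heavy chain of the cystine and basic amino acid exchanger known best from kidney. It had 26.5, 20.4 and 19.5 FPKM in Flox and 6.21, 5.94 and 6.75 FPKM in HepKO replicates 1 to 3. Every HepKO library lay far below every Flox library, with little spread among the HepKO libraries. It fell 3.51-fold (log2 fold change -1.65, SE 0.14, 95% limma interval -1.98 to -1.33, limma adjusted p = 0.00104) and kept its call under all 15 alternatives, with adjusted p at most 0.0131. Slc7a9, the light chain that pairs with rBAT, was listed at 0 in all 6 libraries. The other known partner of rBAT, Slc7a13, had no entry under that symbol in the deposited expression table. Exons of Slc3a1 overlap those of Prepl on the opposite strand by 601 bases, 26.5% of the exon bases of Slc3a1, and the sources used here do not say whether strand was used in the quantification. Prepl, which encodes a prolyl endopeptidase-like protein, had 3.77, 4.90 and 4.26 FPKM in Flox and 2.69, 2.83 and 3.07 FPKM in HepKO replicates 1 to 3 and was also called lower (log2 fold change -0.45, limma adjusted p = 0.0357).

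Slc3a2 (chromosome 19, 8706882 to 8723369), which encodes the widely expressed heavy chain CD98hc, had 42.8, 41.3 and 39.5 FPKM in Flox and 45.4, 47.8 and 43.4 FPKM in HepKO replicates 1 to 3. The HepKO libraries all lay just above the Flox libraries, but the difference did not pass (log2 fold change 0.14, 95% limma interval -0.08 to 0.36, limma adjusted p = 0.32). Its level relative to Slc3a1 was 1.61, 2.02 and 2.03 in Flox and 7.31, 8.06 and 6.43 in HepKO replicates 1 to 3. The ratios between members given here and below were chosen after their values were seen and carry no test.

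Light chains of CD98hc held the 3 calls in the upward direction, all at low levels. Slc7a5 (chromosome 8, 121881150 to 121907694) encodes LAT1, which brings leucine and other large neutral amino acids into the cell in exchange for glutamine. It had 0.761, 0.947 and 0.971 FPKM in Flox and 1.99, 2.23 and 2.55 FPKM in HepKO replicates 1 to 3. The HepKO libraries were all at least at 1.99 FPKM and the Flox libraries all under 1 FPKM. Slc7a5 rose 2.53-fold (log2 fold change 0.78, SE 0.11, limma adjusted p = 0.00524) and kept its call under all 15 alternatives, with adjusted p at most 0.0251.

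Slc7a8 (chromosome 14, 54722209 to 54781946) encodes LAT2, an exchanger of neutral amino acids with a wider choice of substrates. It had 0.575, 0.593 and 0.775 FPKM in Flox and 2.29, 1.83 and 1.31 FPKM in HepKO replicates 1 to 3. The groups did not overlap, but the HepKO libraries spread from 1.31 to 2.29 FPKM. It rose 2.80-fold (log2 fold change 0.76, SE 0.15, limma adjusted p = 0.0170). It no longer passed when either replicate 2 was left out (adjusted p = 0.0614 without that of Flox, 0.0601 without that of HepKO) or with no filter on low genes (0.0509).

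Slc7a6 (chromosome 8, 106168857 to 106198706) encodes y+LAT2, which exports arginine in exchange for glutamine and sodium. It had 0.365, 0.152 and 0.369 FPKM in Flox and 0.735, 1.36 and 1.13 FPKM in HepKO replicates 1 to 3. The groups did not overlap, although HepKO replicate 1 stood well below the other HepKO libraries. It rose 3.64-fold (log2 fold change 0.67, SE 0.15, limma adjusted p = 0.0244), and 4 of the 6 fits that left out 1 library ended the call: those without Flox replicates 2 (adjusted p = 0.0800) and 3 (0.0576) and HepKO replicates 2 (0.0754) and 3 (0.0585). It did not pass with no filter either (0.0572). Its relative Slc7a7, which encodes y+LAT1, had 0.735, 1.27 and 1.37 FPKM in Flox and 0.982, 0.685 and 1.07 FPKM in HepKO replicates 1 to 3, and the groups overlapped (adjusted p = 0.55).

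The light chains Slc7a5, Slc7a6, Slc7a7, Slc7a8 and Slc7a10, the last listed at 0 in every library, summed to 2.44, 2.97 and 3.48 FPKM in Flox and 6.00, 6.11 and 6.06 FPKM in HepKO replicates 1 to 3. Slc3a2 was 17.6, 13.9 and 11.3 times that sum in Flox and 7.57, 7.83 and 7.17 times it in HepKO libraries. Slc3a2 was above the sum of these 5 light chains in every library, by a smaller factor in each HepKO library. Slc7a11, another light chain of CD98hc, lies outside the rule and is not in the sum.

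**Figure D2:**
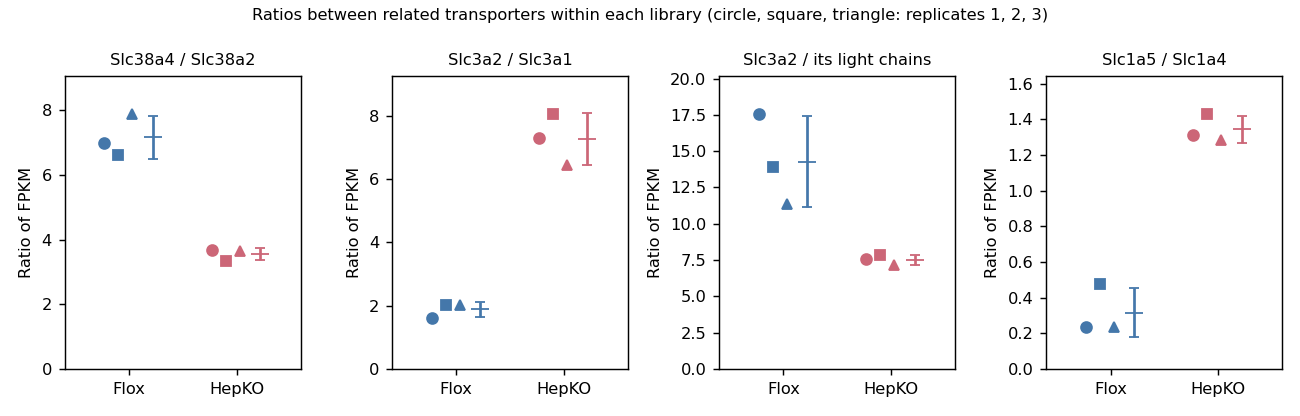
Ratios of FPKM between related members within each library, Flox in blue and HepKO in red, with replicates 1, 2 and 3 as circle, square and triangle and the mean ± SD (n = 3) beside them; each axis starts at 0. None of the 4 ratios overlapped between groups: Slc38a4 to Slc38a2 and Slc3a2 to the 5 summed light chains were lower in HepKO libraries, and Slc3a2 to Slc3a1 and Slc1a5 to Slc1a4 were higher. Each of the 4 sets a called member, or a sum holding called members, against a member that did not pass. Their separation therefore largely restates the calls. The ratio of Slc7a5 to Slc7a8, both called higher, is not drawn. It overlapped, at 1.252 to 1.5972 in Flox and 0.86965 to 1.953 in HepKO libraries.

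The facilitative LAT carriers, which need no exchange partner, did not pass. Slc43a1 (LAT3) had 0.492, 0.661 and 0.691 FPKM in Flox and 0.861, 1.12 and 0.829 FPKM in HepKO replicates 1 to 3, without overlap (log2 fold change 0.26, 95% limma interval -0.01 to 0.53, limma adjusted p = 0.15). Slc43a2 (LAT4) ranged from 0.107 to 1.05 FPKM with no order by genotype and was not tested. Slc43a3, a relative that carries purine nucleobases, had 5.79, 3.98 and 5.55 FPKM in Flox and 6.87, 5.56 and 6.73 FPKM in HepKO replicates 1 to 3, and the groups overlapped (adjusted p = 0.23).

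Arginine carriers were led by Slc7a2, which encodes CAT2, the main cationic amino acid carrier of liver. It had 26.2, 5.84 and 15.2 FPKM in Flox and 29.1, 28.8 and 29.6 FPKM in HepKO replicates 1 to 3. The HepKO libraries lay within 1 FPKM of each other, while the Flox libraries spread from 5.84 to 26.2 FPKM, a coefficient of variation of 64.8% against 1.38%. The difference did not pass (log2 fold change 1.06, 95% limma interval -0.02 to 2.15, limma adjusted p = 0.15). Without Flox replicate 1, the ratio of means went from 1.85 to 2.78 and the gene passed (adjusted p = 0.0389). Slc7a1, which encodes CAT1, the general arginine carrier of most other cells, was below the limit for the test with 0.169, 0.115 and 0.248 FPKM in Flox and 0.716, 0.787 and 0.665 FPKM in HepKO replicates 1 to 3. Every HepKO library was well above every Flox library. With no filter on low genes it was called higher (log2 fold change 0.55, SE 0.08, limma adjusted p = 0.0162), as were 3.55% of the 26473 genes of that fit, and its q-value in the authors' deposited table was 1.35e-06. The CAT-like genes Slc7a3 and Slc7a4 stayed at or below 0.204 FPKM, and Slc7a14 was listed at 0 throughout.

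Of the small neutral exchangers, Slc1a4 alone was called. Slc1a4 (chromosome 11, 20302180 to 20332713) encodes ASCT1, which exchanges alanine, serine, cysteine and threonine. It had 3.40, 2.82 and 5.70 FPKM in Flox and 1.06, 1.14 and 1.43 FPKM in HepKO replicates 1 to 3. Flox replicate 3 was the highest library, and even the lowest Flox library was above all HepKO libraries. It fell 3.29-fold (log2 fold change -1.13, SE 0.21, 95% limma interval -1.64 to -0.62, limma adjusted p = 0.0140), and the call was lost without HepKO replicate 2 (adjusted p = 0.0525). Slc1a5, which encodes ASCT2, a glutamine exchanger prominent in dividing cells, had 0.807, 1.34 and 1.34 FPKM in Flox and 1.39, 1.63 and 1.84 FPKM in HepKO replicates 1 to 3. Its HepKO libraries were all above its Flox libraries, by little, and the difference did not pass (log2 fold change 0.28, 95% limma interval -0.06 to 0.62, adjusted p = 0.20). Slc1a5 was 0.237, 0.476 and 0.235 times Slc1a4 in Flox and 1.31, 1.43 and 1.29 times Slc1a4 in HepKO replicates 1 to 3, so Slc1a4 was the higher gene in every Flox library and Slc1a5 in every HepKO library.

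Glutamate carriers of the SLC1 family were scarce. Slc1a2, which encodes GLT-1 and is known in liver from the pericentral hepatocytes that make glutamine, had 0.158, 0.137 and 0.352 FPKM in Flox replicates 1 to 3, was listed at 0 in HepKO replicate 1 and had 0.00957 and 0.0261 FPKM in HepKO replicates 2 and 3. It was not tested at this level. With no filter it did not pass (log2 fold change -0.26, limma adjusted p = 0.0921), while its q-value in the authors' deposited table was 1.58e-05. Pericentral markers did not move one way. Without Cyp2e1, the most abundant of them, they summed to 193 to 203 FPKM in Flox and 90.4 to 122 FPKM in HepKO libraries, with Cyp1a2, Axin2, Cyp2c29 and Gulo called lower. Glul, which encodes the glutamine synthetase of those cells, had 9.11, 6.68 and 10.2 FPKM in Flox and 17, 19.2 and 19.2 FPKM in HepKO replicates 1 to 3 and was called higher (log2 fold change 1.02, limma adjusted p = 0.00679). The groups overlapped for Oat, Rhbg, Lgr5 and Lhpp. Slc1a1, Slc1a3 and Slc1a7 never exceeded 0.0440 FPKM, and Slc1a6 was listed at 0.

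System A and system N carriers are the sodium-coupled route by which hepatocytes take up alanine and glutamine. Slc38a4 (chromosome 15, 96994820 to 97055956) encodes SNAT4, the most abundant member here. It had 148, 104 and 108 FPKM in Flox and 74.4, 72.3 and 80.2 FPKM in HepKO replicates 1 to 3. Flox replicate 1 was the highest library, and the 3 HepKO libraries lay together below all Flox libraries. It fell 1.59-fold (log2 fold change -0.64, SE 0.15, limma adjusted p = 0.0293). It did not pass when Flox replicate 3 was left out (adjusted p = 0.0593) or any 1 of the HepKO libraries (0.0735, 0.0952 and 0.0518 without replicates 1, 2 and 3), after median-ratio rescaling (0.0562) and with no filter (0.0621).

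Slc38a2, which encodes SNAT2, the system A carrier induced when amino acids run short, had 21.1, 15.7 and 13.7 FPKM in Flox and 20.2, 21.6 and 22.0 FPKM in HepKO replicates 1 to 3. Flox replicate 1 reached the HepKO level and the other Flox libraries did not, and the difference did not pass (log2 fold change 0.34, 95% limma interval -0.04 to 0.72, limma adjusted p = 0.18). It was called only without Flox replicate 1 (adjusted p = 0.0370). Slc38a4 stood 7.00, 6.61 and 7.88 times above Slc38a2 in Flox and 3.68, 3.34 and 3.65 times above it in HepKO libraries. Slc38a1, the system A carrier of brain, stayed between 0.0757 and 0.183 FPKM and was not tested.

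Slc38a3, which encodes SNAT3, the system N carrier of glutamine, had 65.0, 95.8 and 80.1 FPKM in Flox and 112, 81.8 and 77.5 FPKM in HepKO replicates 1 to 3. The groups overlapped widely (log2 fold change 0.17, 95% limma interval -0.30 to 0.63, limma adjusted p = 0.58). HepKO replicate 1, the library with the highest mitochondrial share, was also the highest for Slc38a3. Slc38a4 exceeded Slc38a3 in all 3 Flox libraries, at 2.28, 1.09 and 1.35 times its level, and in HepKO replicate 3 (1.04 times), but not in HepKO replicates 1 and 2 (0.665 and 0.884 times).

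Other SNAT members differed little. Slc38a10 had 10.9, 9.25 and 9.57 FPKM in Flox and 10.8, 10.9 and 11.0 FPKM in HepKO replicates 1 to 3 (adjusted p = 0.39), and Slc38a7, a lysosomal glutamine carrier, had 6.24, 7.09 and 7.94 FPKM in Flox and 6.49, 5.61 and 4.69 FPKM in HepKO replicates 1 to 3 (log2 fold change -0.30, 95% limma interval -0.63 to 0.04, limma adjusted p = 0.18). The groups overlapped for both. Slc38a9, a lysosomal arginine sensor upstream of mTORC1, had 0.616, 0.616 and 0.697 FPKM in Flox and 0.467, 0.509 and 0.536 FPKM in HepKO replicates 1 to 3. Its HepKO libraries were all lower, by less than the test could call (adjusted p = 0.38). Slc38a6 had 0.331 to 0.636 FPKM, and Slc38a8 and Slc38a11 stayed at or below 0.0177 FPKM.

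Proton-coupled carriers ended the series. Slc36a1 (chromosome 11, 55204350 to 55236330) encodes PAT1, which releases small amino acids from lysosomes. It had 3.98, 5.39 and 5.46 FPKM in Flox and 2.81, 3.41 and 2.66 FPKM in HepKO replicates 1 to 3, with no overlap between groups. It fell 1.67-fold (log2 fold change -0.58, SE 0.14, limma adjusted p = 0.0327). Of the 6 fits that left out 1 library, only that without Flox replicate 1 kept the call (adjusted p = 0.0194). It was lost without Flox replicate 2 (0.105) or 3 (0.102), HepKO replicate 1 (0.0903), 2 (0.0569) or 3 (0.0777), after median-ratio rescaling (0.0536) and with no filter (0.0731). Slc36a4, which encodes PAT4, had 1.13, 1.28 and 0.902 FPKM in Flox and 1.14, 1.65 and 1.66 FPKM in HepKO replicates 1 to 3, with overlap (adjusted p = 0.26), and Slc36a2 did not exceed 0.0322 FPKM. Slc7a15 stayed at or below 0.204 FPKM.

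**Figure D3:**
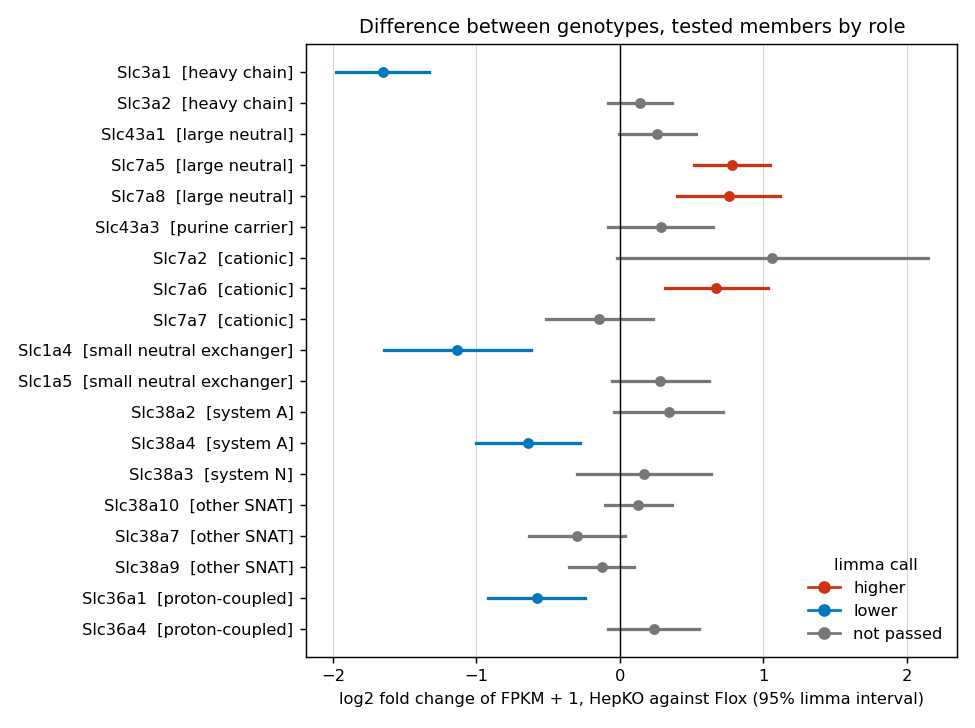
Log2 fold change of FPKM + 1, HepKO against Flox, for the 19 tested transporters by role, each with its 95% limma interval; red marks members called higher, blue called lower and grey not passed. Within a role the points lie on both sides of 0 for heavy chains, cationic, small neutral, system A, other SNAT and proton-coupled carriers, and the interval of Slc7a2 is the widest, from -0.02 to 2.15.

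The authors' own comparison lists a p-value and a q-value for the low genes as well. Whether each listed value came from a test is not stated, so the shares below are over all rows. In the authors' deposited table, 9 of the 37 members had a q-value under 0.05, 4 with the higher mean in HepKO and 5 with the lower, while 5.39% and 3.57% of all 28476 genes did so. These 9 held all 7 members called by limma together with Slc7a1 and Slc1a2. In that table Slc3a1 had q = 5.31e-12 and Slc1a4 q = 1.54e-05, while Slc38a4 (q = 0.0271) and Slc36a1 (q = 0.0403) were nearest to the threshold among the 9.

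**Figure D4:**
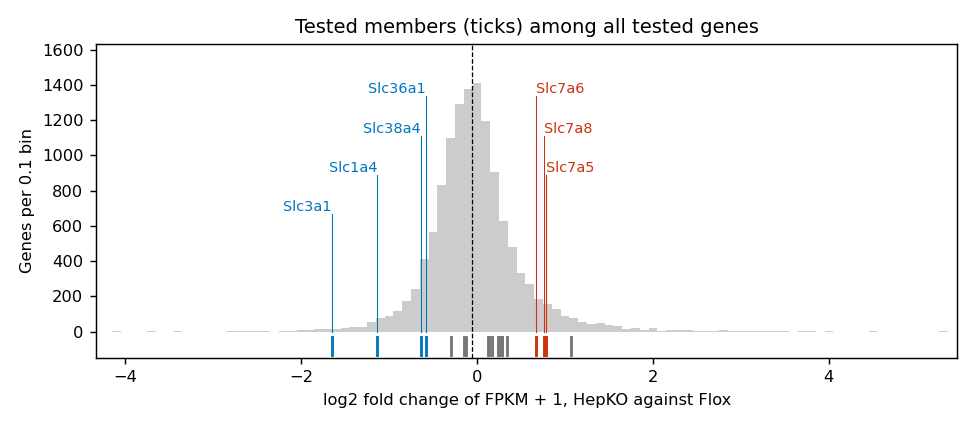
Histogram of the log2 fold changes of all 12712 genes tested, in bins of 0.1, with a tick under the axis for each of the 19 tested transporters and the 7 called members named; the dashed line is the median of all genes, -0.06. The called members sit in the flanks on both sides, from Slc3a1 at -1.65 to Slc7a5 at 0.78, and Slc7a2, at 1.06, is the grey tick farthest from 0.

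Promoter sequence was compared for members that were called together. RefSeq promoter windows (GRCm38.p6) were found for 28 of the 37 members, 39 windows in all, and the 250 bases before the start were searched on both strands for TGATGNAA (the ATF4 and C/EBP type), TGANTCA (the AP-1 type) and CACGTG (the E-box). The 4 windows printed here belong to members called lower (Slc3a1, Slc36a1 and Slc1a4) and higher (Slc7a6), and show the window of the steepest fall beside others. Capitals mark a motif match, and the strand is that of the gene.
Slc3a1, chr17:85028097-85028346, plus strand: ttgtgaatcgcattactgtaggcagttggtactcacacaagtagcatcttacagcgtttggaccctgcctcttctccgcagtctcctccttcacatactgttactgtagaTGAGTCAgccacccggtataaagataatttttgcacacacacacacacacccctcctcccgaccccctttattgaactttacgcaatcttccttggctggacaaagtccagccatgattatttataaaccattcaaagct
Slc36a1, chr11:55204090-55204339, plus strand: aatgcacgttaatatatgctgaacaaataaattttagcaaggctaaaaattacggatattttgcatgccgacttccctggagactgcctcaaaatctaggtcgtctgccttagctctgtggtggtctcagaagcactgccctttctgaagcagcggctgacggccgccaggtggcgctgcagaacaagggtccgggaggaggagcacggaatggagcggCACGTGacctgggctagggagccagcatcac
Slc1a4, chr11:20332714-20332963, minus strand: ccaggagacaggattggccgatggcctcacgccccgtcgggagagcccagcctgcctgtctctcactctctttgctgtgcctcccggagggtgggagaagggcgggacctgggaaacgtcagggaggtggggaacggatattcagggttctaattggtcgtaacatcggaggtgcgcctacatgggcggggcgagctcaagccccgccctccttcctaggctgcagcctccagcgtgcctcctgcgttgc
Slc7a6, chr8:106168604-106168853, plus strand: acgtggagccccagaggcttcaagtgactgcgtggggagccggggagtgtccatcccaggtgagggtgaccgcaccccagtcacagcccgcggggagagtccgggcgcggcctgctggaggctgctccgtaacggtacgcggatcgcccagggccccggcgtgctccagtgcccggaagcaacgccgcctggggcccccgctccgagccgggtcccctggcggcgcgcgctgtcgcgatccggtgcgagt

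The Slc3a1 window holds 1 AP-1 type match, starting 140 bases before the RefSeq start, and the Slc36a1 window 1 E-box, starting 31 bases before it. No match to the 3 motifs was found in the printed windows of Slc1a4 and Slc7a6. The 3 windows of members called higher were 1 of Slc7a8 and 2 overlapping ones of Slc7a6. They held 0 matches to any of the motifs, and no window was found for Slc7a5. Of the 6 windows of members called lower, 0 held the ATF4 and C/EBP type, 1 the AP-1 type and 1 the E-box. Over the 39 member windows, called or not, 2 held the ATF4 and C/EBP type (5.13%), 4 the AP-1 type (10.3%) and 6 the E-box (15.4%), and over all 32851 windows the shares were 3.45%, 6.75% and 6.02%. The ATF4 and C/EBP type matches were both in windows of Slc7a7, which did not pass. The letters match a consensus and do not show binding.

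Genes around these transporters were counted from 4 lists, whose calls are read beside the 9.33% higher and 11.0% lower of all genes. The amino acid response, in which the transcription factor ATF4 raises transporters and synthesis genes when amino acids run short, was split. Of 26 tested genes, 7 were higher, 4 lower and 15 did not pass (median log2 fold change 0.21). Ddit4, an mTORC1 inhibitor, rose from 5.45 ± 1.59 to 30.4 ± 8.85 FPKM (mean ± SD, n = 3 here and for the other lists), and the stress hormone gene Gdf15 from 14.6 ± 6.66 to 68.9 ± 11.2 FPKM (limma adjusted p = 0.00257 and 0.00374). Atf5, a relative of Atf4 and the most abundant gene of the list, fell from 278 ± 31.5 to 145 ± 16.2 FPKM (adjusted p = 0.00477). The bZIP factor gene Cebpg fell from 17 ± 1.28 to 10.7 ± 2.77 FPKM (adjusted p = 0.0465), a call lost without any of Flox replicates 1 (0.109), 2 (0.119) and 3 (0.0918) and HepKO replicates 1 (0.0954) and 2 (0.126). In each of those 5 fits only 1 gene of the list was called lower, and the number called higher was 3 without Flox replicate 3 and 4 without HepKO replicate 2 or 3. Atf4 itself, named after its values were seen, averaged 87.9 ± 2.14 FPKM in Flox and 88.6 ± 30.9 FPKM in HepKO libraries (adjusted p = 0.91).

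Amino acid sensing by mTORC1, the kinase complex that lysosomal transporters report to, had 1 higher, 4 lower and 26 not passed of 31 tested genes (median log2 fold change -0.06). The leucine sensor gene Sesn2, which is also in the amino acid response list, was the one that rose, from 3.27 ± 0.969 to 7.01 ± 1.26 FPKM (limma adjusted p = 0.0207), a call lost without Flox replicate 2 (0.0607) or 3 (0.0657) or HepKO replicate 1 (0.0591) or 3 (0.0522). Deptor, an mTOR inhibitor, fell from 6.20 ± 0.444 to 2.30 ± 0.102 FPKM (adjusted p = 0.00114) and Lamtor5, a subunit of the lysosomal Ragulator complex, from 24.1 ± 0.957 to 16.9 ± 2.29 FPKM (0.0312). The Lamtor5 call was lost without Flox replicate 1 (0.0685), 2 (0.0779) or 3 (0.0983) or HepKO replicate 1 (0.0644) or 2 (0.0952). In each fit without 1 of those 5 libraries, only 1 gene of the list was called lower. The most abundant gene, Rraga, a Rag GTPase, averaged 25.9 ± 2.33 FPKM in Flox and 25.7 ± 3.18 FPKM in HepKO libraries (adjusted p = 0.96).

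Amino acid and peptide carriers outside the 6 families gave 3 higher, 2 lower and 6 not passed of 11 tested genes (median log2 fold change -0.11). Slc6a13, a carrier of GABA and taurine in periportal hepatocytes and the most abundant of them, fell from 57.5 ± 7.91 to 30.2 ± 3.89 FPKM (limma adjusted p = 0.00777). Slc16a10, a carrier of aromatic amino acids, fell from 5.79 ± 0.620 to 3.50 ± 0.400 FPKM (adjusted p = 0.0166, and 0.0563 without HepKO replicate 2). Slc6a19, the neutral amino acid carrier of intestine and kidney, was listed at 0 in Flox replicate 3 and had 0.0349 and 0.149 FPKM in Flox replicates 1 and 2, against 0.910, 1.25 and 1.00 FPKM in the HepKO libraries (adjusted p = 0.00314), so it reached the test only through the HepKO level, as did Slc15a2, the other one called higher beside Slc15a3. The lysosomal peptide and histidine carrier gene Slc15a3 rose from 0.705 ± 0.119 to 1.74 ± 0.249 FPKM (adjusted p = 0.00931). Among the fits that left out 1 library, the Slc15a2 call was kept only without HepKO replicate 3 (limma adjusted p = 0.0353). With no filter on low genes Slc15a2 did not pass (0.0683).

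Enzymes that use the carried amino acids were lower more often than higher: of 29 tested genes 4 were higher, 14 lower and 11 did not pass (median log2 fold change -0.51). Of the 4, Arg2, the mitochondrial arginase, had a Flox mean of 0.326 FPKM and reached the test only through its HepKO level. Among the fits that left out 1 library, its call was kept only without HepKO replicate 3 (limma adjusted p = 0.0090). With no filter on low genes Arg2 did not pass (0.0957), and it is named here after its values were seen. After median-ratio rescaling 4 were higher and 9 lower, and the number lower was 9 without Flox replicate 1, 8 without Flox replicate 2 or HepKO replicate 1 and 7 without HepKO replicate 2. The proline dehydrogenase gene Prodh fell from 7.33 ± 0.479 to 2.52 ± 0.581 FPKM (limma adjusted p = 0.00247). Ornithine decarboxylase Odc1, which starts polyamine synthesis, rose from 29.6 ± 4.98 to 69.6 ± 4.68 FPKM, and the alanine aminotransferase Gpt2 from 82.7 ± 16.8 to 185 ± 8.81 FPKM (adjusted p = 0.00244 and 0.00374). Arg1, the arginase of the urea cycle and the most abundant of them, averaged 698 ± 139 FPKM in Flox and 835 ± 96.0 FPKM in HepKO libraries (adjusted p = 0.29).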

How the data were processed

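RNA was sequenced as 3 Flox and 3 Nedd4 HepKO liver libraries, grouped by the genotype label. The authors deposited 1 table with an FPKM value per gene and library and the p-value and q-value of their own comparison, per the file headers. Tools listed in the submitters' processing notes are HISAT2 2.0.4, cutadapt 1.9, edgeR, DESeq2 and StringTie 1.3.4d, with no role stated, and the sources used here do not give the annotation. Depth is unknown, so no counting interval was possible.

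FPKM values were transformed as log2(FPKM + 1), genes with a mean under 0.5 FPKM were left out, and HepKO was compared with Flox in limma 3.58.1 (R 4.3.3) with a variance trend, two-sided, with Benjamini-Hochberg adjustment over 12712 genes. Folds are ratios of mean FPKM. The fit was run on simulated data with known changes. Values were drawn independently for each gene and library, so shifts shared within a library were not simulated. Alternatives were other pseudocounts, filters, scalings and variance settings, the replicate number as a block, and the omission of 1 library at a time.

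Every member is reported. In the lists, the rule named the 2 genes with the largest called change in each direction and the most abundant gene; 1 gene it names is not reported here. Of 230 list entries, 227 matched a row, 2 of them through another symbol. Those 2 were Slc66a1, found as Pqlc2, and the neutrophil marker Camp, which was matched to a different gene, Vamp5. The members and lists were chosen with earlier results of these data known. Gene coordinates are as deposited; for 34 of the 37 members they equal GENCODE M21 (GRCm38).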

Additional observations from a re-analysis of the deposited data

How the results depend on the processing

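Over 282 alternative fits of the 19 tested transporters, 0 changed direction, 254 kept their side of the threshold, 26 lost a call and 2 gained one. The 282 include members not called in the main fit, and all 26 losses fell on the 7 called members. Of these, only Slc3a1 and Slc7a5 kept the call throughout. Slc38a4 kept it in 8 of 15 alternatives and Slc36a1 in 7 of 15. Replicate numbers did not pair the libraries (correlations of same-numbered deviations 0.0029, 0.0021 and -0.0255). With the replicate number as a block, 1 transporter was called higher and 2 lower, and 776 and 775 of all genes; the calls of Slc7a8, Slc7a6, Slc38a4 and Slc36a1 were not kept. Under that block 1 gene was lower in each of the amino acid response, mTORC1 and other carrier lists, and 7 enzymes. With no filter on low genes, 2 transporters and 899 of all genes were lower, with 4 higher and 1 lower in the amino acid response, 0 higher and 2 lower in mTORC1 sensing and 8 enzymes lower. After median-ratio rescaling 2 transporters, 2 amino acid response genes and 9 enzymes were lower and 3 mTORC1 genes higher. With a filter of 1 FPKM, 1 other carrier was higher, since fewer genes were tested. Leaving out 1 library gave 1 to 5 transporters higher and 1 to 4 lower, 685 to 1022 of all genes higher and 616 to 1302 lower, 3 to 6 amino acid response genes higher and 1 to 4 lower, 0 to 2 mTORC1 genes higher and 1 to 4 lower, 2 to 3 other carriers higher and 1 to 2 lower, and 3 to 4 enzymes higher and 7 to 11 lower. These fits have fewer libraries, and for the other changes the cause was not tested. With 3 libraries a group and no depth in the files, members under 0.5 FPKM carry no limma call in the main test, and markers of other cells differ between the groups.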
